A study of Mus musculus with 8 samples.

Results

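The leukocyte microRNAs miR-223, miR-142-3p, miR-142-5p, miR-150 and miR-342-3p were measured by real-time PCR in sorted CD34+/CD105- cells of the mouse renal artery. They were represented by 6 of the 750 miRNA assays of the series, chosen by name: mmu-miR-223, hsa-miR-223, mmu-miR-142-3p, mmu-miR-142-5p, mmu-miR-150 and mmu-miR-342-3p. Each sample was 1 mouse, and there were 4 mice with sham surgery and 4 mice whose renal arteries were clamped on both sides and then reperfused (ischemia/reperfusion). All samples shared the collagenase digestion of the artery and the sort for CD34+/CD105- cells. Not given in the sources used here are the times of clamping and reperfusion and the strain, age and sex of the mice. CD34 marks endothelial cells and also hematopoietic progenitors, and CD105 (endoglin) marks endothelial and stromal cells. No marker of mature leukocytes is named for the sort. The comparison asks whether miRNAs of blood cells differ in these sorted cells after renal ischemia/reperfusion.

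A miRNA guides the Argonaute complex to messenger RNAs that pair with its seed, the bases near its 5′ end, and lowers their translation and stability. miR-223 is made at high levels in neutrophils and monocytes, where it restrains granulocyte production and activation. Both arms of miR-142 are made across nearly all blood cell lineages and are used to mark cells of hematopoietic origin. miR-150 is abundant in mature B, T and natural killer cells and targets the transcription factor Myb, and miR-342-3p is found in lymphoid and myeloid cells. Reperfusion of the kidney is known for the entry of neutrophils, monocytes and lymphocytes into the tissue.

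The mature sequences are shown because the assays differ in what they can read: miR-142 is measured through both arms of the hairpin, and the other members through a single arm. Of the 5 mature miRNAs, 4 matched a mouse entry of RefSeq (GRCm38.p6). They are written 5′ to 3′ with the seed, bases 2 to 8, in capitals.
miR-223-3p: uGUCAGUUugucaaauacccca
miR-142a-3p: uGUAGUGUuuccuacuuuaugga
miR-142a-5p: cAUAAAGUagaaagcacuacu
miR-342-3p: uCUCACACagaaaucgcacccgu
No seed was shared between these 4 sequences, and each of the 4 seeds belonged to 1 mature miRNA name in the RefSeq mouse table. The hsa-miR-223 assay carries the human name, and its sequence was not used here.

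The miR-142 hairpin shows how both arms lie in a single precursor of 64 bases, with the 5p arm (bases 4 to 24) and the 3p arm (bases 40 to 62) in capitals.
Mir142 hairpin: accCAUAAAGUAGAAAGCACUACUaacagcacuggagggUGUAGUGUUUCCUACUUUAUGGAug
In GRCm38.p6 this gene lies on the plus strand at chr11:87756864-87756927 and overlaps the miRNA gene Mir142b. Mir223 lies at chrX:96242817-96242926 (plus strand) within the span of the long noncoding RNA gene F630028O10Rik. Mir342 lies at chr12:108658620-108658718 (plus strand) within the span of the protein-coding gene Evl. Mir150 lies at chr7:45121757-45121821 (plus strand) and overlaps no other listed gene. The 4 genes thus lie on 4 chromosomes.

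The readout was the threshold cycle (Ct), which falls by 1 for each doubling of the template if PCR is fully efficient, and an assay counted as detected below Ct 35. The number of detected miRNA assays ranged from 75 to 163 in sham mice and from 82 to 98 in ischemia/reperfusion mice. The mean Ct of the 54 miRNA assays detected in all 8 samples ranged from 24.8 to 28.4 in sham mice and from 27.7 to 28.1 in ischemia/reperfusion mice. Sham mouse 4 had the most signal and sham mouse 2 the least. The endothelial miRNA miR-126-3p was detected in every mouse, at Ct 22.2 to 25.7 in sham mice and 26.6 to 27.6 after ischemia/reperfusion. Of the erythroid and platelet markers miR-451, miR-144 and miR-486, 0 of 3 assays gave a Ct in any sample. In sorted cells taken as a bulk sample, fewer cells of a type and less RNA per cell cannot be told apart.

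Of the leukocyte miRNAs, miR-223 and miR-150 were present in the cells of every mouse, while miR-142 and miR-342-3p were at or past the limit of detection in most of them. Both miR-223 assays and the miR-150 assay were detected in 8 of 8 samples, beside 7.2% of all 750 miRNA assays. With miR-142-3p and miR-342-3p, 5 of the 6 assays were detected in at least 1 sample, beside 24.9% of all miRNA assays. After ischemia/reperfusion the level of miR-223 had a higher mean by both assays and that of miR-150 a lower mean, but no member passed the test. After ischemia/reperfusion miR-150 was high in 2 mice and low in 2, a spread of 8.02 cycles within that group.

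**Figure D1:**
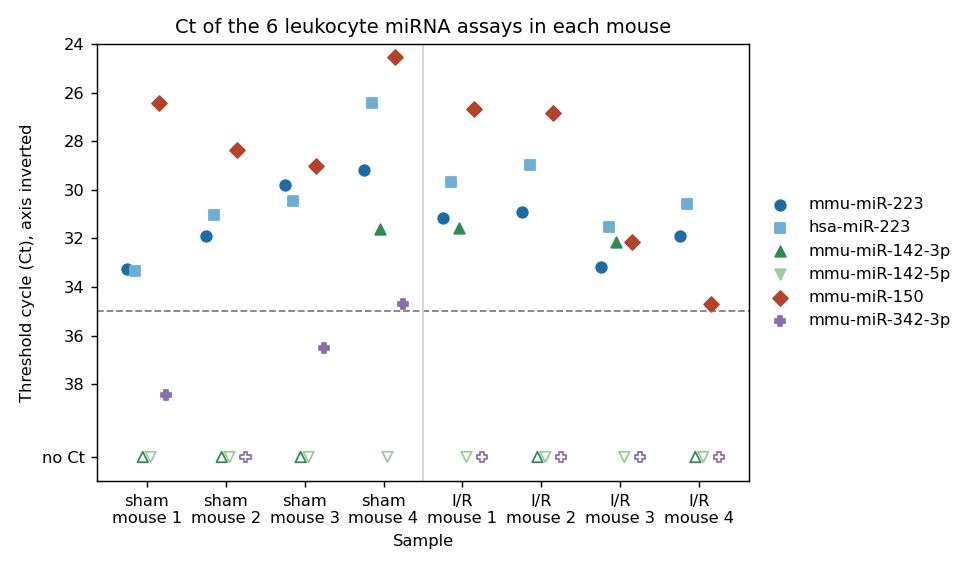
Ct (inverted axis, so more RNA is higher) of the 6 leukocyte miRNA assays in each of the 8 mice, with the detection limit of Ct 35 as a dashed line and wells without a Ct as open symbols at the bottom. The miR-150 assay spans Ct 24.6 to 34.7, both miR-223 assays are present in all mice, and miR-142-5p has no Ct in any.

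The myeloid miRNA miR-223 was read by the mmu-miR-223 assay at Ct 33.3, 31.9, 29.8 and 29.2 in sham mice 1 to 4. In ischemia/reperfusion mice 1 to 4 the Ct was 31.2, 30.9, 33.2 and 31.9. On the raw scale the ischemia/reperfusion mice thus lay within the range of the sham mice, and the earliest Ct was that of sham mouse 4. Relative to the deposited reference of each sample, the level (minus delta Ct, a log2 scale on which higher means more RNA) was -12.61, -9.46, -10.81 and -11.24 in sham mice 1 to 4. It was -10.14, -8.56, -12.67 and -10.24 in ischemia/reperfusion mice 1 to 4. On this scale 3 of the 4 ischemia/reperfusion mice exceeded the sham mean, while mouse 3 was as low as the lowest sham mouse. The group means were -11.03 ± 1.30 (SD, n = 4) with sham surgery and -10.40 ± 1.70 (SD, n = 4) with ischemia/reperfusion. The log2 difference was 0.63 ± 1.00 (SE), with a 95% interval from -1.64 to 2.90 (limma adjusted p = 0.714), so the groups overlapped and the difference was smaller than its error.

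The hsa-miR-223 assay, on the other card, gave Ct 33.3, 31.0, 30.5 and 26.4 in sham mice 1 to 4. After ischemia/reperfusion it gave Ct 29.7, 29.0, 31.5 and 30.6 in mice 1 to 4. The level relative to the reference was -11.89, -8.01, -10.26 and -7.60 in sham mice 1 to 4. It was -8.20, -6.33, -9.91 and -8.70 in ischemia/reperfusion mice 1 to 4. Again 3 of the 4 ischemia/reperfusion mice lay above the sham mean and the groups overlapped. The log2 difference was 1.15 ± 1.13 (SE, n = 4 per group), with a 95% interval from -1.42 to 3.73 (limma adjusted p = 0.605).

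Within each group both assays put the mice in the same order of Ct, with sham mouse 4 earliest and sham mouse 1 latest, and ischemia/reperfusion mouse 2 earliest and mouse 3 latest. Over the 8 mice their Ct values correlated (Pearson r = 0.847, exact permutation p = 0.00627, adjusted p = 0.0251; Spearman rho = 0.905, exact permutation p = 0.00456, adjusted p = 0.0183, over 4 relations). Without sham mice 1 and 4, the samples farthest from the median, r was 0.602 (n = 6, exact permutation p = 0.204). Leaving out the farthest samples narrows the range, so this lower r cannot show how far the relation rests on them. On the minus delta Ct scale r was 0.809 and rho 0.667 (exact permutation p = 0.0154 and 0.0831; adjusted p = 0.0307 and 0.166). Without sham mouse 1 and ischemia/reperfusion mouse 3 that r was 0.619 (n = 6, exact permutation p = 0.174).

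The offset between the assays was not constant. The hsa-miR-223 Ct minus the mmu-miR-223 Ct was 0.083, -0.86, 0.66 and -2.76 cycles in sham mice 1 to 4. It was -1.48, -1.96, -1.68 and -1.31 cycles in ischemia/reperfusion mice 1 to 4. The offset was thus narrow after ischemia/reperfusion (SD 0.279, n = 4) and wide in sham mice (SD 1.50, n = 4), where it spanned both signs. Its mean differed between the groups by -0.89 cycles, with an exact permutation p of 0.286 (two-sided), where 4 against 4 mice cannot go under 0.0286. Without sham mouse 4, the only sham mouse whose offset was not above those of all ischemia/reperfusion mice, the difference was -1.57 cycles, and without sham mouse 3 it was -0.43 cycles (exact permutation p = 0.571).

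**Figure D2:**
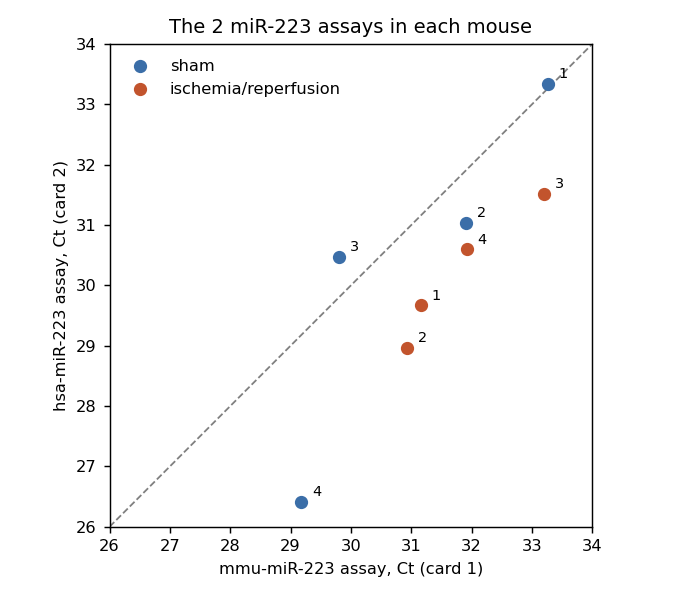
Ct of the hsa-miR-223 assay (vertical) against that of the mmu-miR-223 assay (horizontal) in each mouse, numbered within its group, with equal Ct as a dashed line. The vertical distance from the line is between -1.96 and -1.31 cycles in the 4 ischemia/reperfusion mice and between -2.76 and 0.66 cycles in the sham mice.

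The direction of the miR-223 difference depended on the reference for the mmu assay. The deposited reference itself came 1.39 cycles later on the first card in ischemia/reperfusion mice than in sham mice (exact permutation p = 0.286), and 1.02 cycles later on the second (exact permutation p = 0.314). Without normalization the mmu-miR-223 difference was -0.76 ± 1.06 and the hsa-miR-223 difference 0.13 ± 1.39 (SE, log2). Against the mean of the miRNA assays detected in all samples of the same card they were 1.29 ± 0.94 and 1.22 ± 1.38, and against the control assays 0.37 ± 1.06 and 1.27 ± 1.22. The median difference of the 72 tested miRNA assays moved with the reference as well, at -0.80 for the deposited one, -0.31 for the mean and -1.93 without normalization. Relative to that median, the mmu-miR-223 difference was higher by 1.43, 1.60, 1.17 and 1.17 log2 units with the deposited reference, the mean, the control assays and no reference. The hsa-miR-223 difference was higher than the median by 1.95, 1.53, 2.06 and 2.06 log2 units with the same references. A reference value shifts all assays of a card alike, so these distances are nearly fixed and their likeness is no separate support. The unadjusted limma p of the miR-223 differences was at least 0.204 with these references.

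Single mice moved these values. The mmu-miR-223 difference was 0.013 without ischemia/reperfusion mouse 2 and 0.10 without sham mouse 1. The hsa-miR-223 difference was 0.34 without sham mouse 1 and 1.77 without sham mouse 4.

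The lymphocyte miRNA miR-150 was read at Ct 26.4, 28.4, 29.0 and 24.6 in sham mice 1 to 4. In ischemia/reperfusion mice 1 and 2 it was read at Ct 26.7 and 26.9, and in mice 3 and 4 at Ct 32.1 and 34.7. Ischemia/reperfusion mice 1 and 2 thus lay within the sham range, and mice 3 and 4 lay past the latest sham mouse. The mean Ct of the assays detected in all samples lay between 27.7 and 28.1 in all ischemia/reperfusion mice. The part of total signal in the miR-150 values of these mice was not tested. The level relative to the reference was -5.77, -5.91, -10.02 and -6.62 in sham mice 1 to 4. It was -5.67, -4.48, -11.62 and -13.03 in ischemia/reperfusion mice 1 to 4. The highest and the lowest of the 8 values both came from ischemia/reperfusion mice, and sham mouse 3 was the lowest of its group.

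For miR-150 the group means were -7.08 ± 1.99 (SD, n = 4) with sham surgery and -8.70 ± 4.25 (SD, n = 4) with ischemia/reperfusion. The log2 difference was -1.62 ± 2.00 (SE), with a 95% interval from -6.16 to 2.92 (limma adjusted p = 0.626), and 2 of 4 ischemia/reperfusion mice lay above the sham mean. The Ct of ischemia/reperfusion mouse 4 was the highest of the 88 miRNA assays detected in that mouse, just inside the detection limit. Without that mouse the difference was -0.18, and without ischemia/reperfusion mouse 2 it was -3.03. The difference was -0.96 ± 1.73 against the mean of the assays detected in all samples, -1.88 ± 1.99 against the control assays and -3.01 ± 1.91 without normalization (SE, log2). It lay below the median of the tested assays by 0.82 log2 units with the deposited reference.

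**Figure D3:**
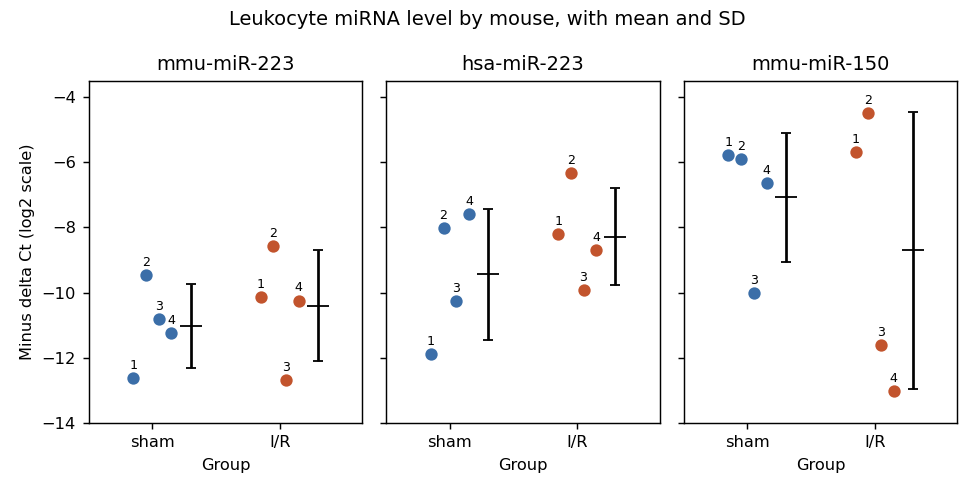
Minus delta Ct (log2 scale, higher means more RNA) of the 3 leukocyte assays detected in all mice, with numbered points for the mice of each group and the mean ± SD beside them. The groups overlap for each assay, and the miR-150 values after ischemia/reperfusion (I/R) lie in a pair near -5.67 and -4.48 and a pair near -11.62 and -13.03.

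The spread of miR-150 was set beside that of the 54 miRNA assays detected in all samples. Its SD over the ischemia/reperfusion mice, 4.25, ranked 2 of 54, where the median assay had an SD of 0.912. Over the sham mice its SD of 1.99 ranked 10 of 54, beside a median of 1.11. The mmu-miR-223 assay ranked 9 of 54 after ischemia/reperfusion and 23 of 54 in sham mice. The hsa-miR-223 assay ranked 14 and 9 of 54. These ranks are a description without a test.

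**Figure D4:**
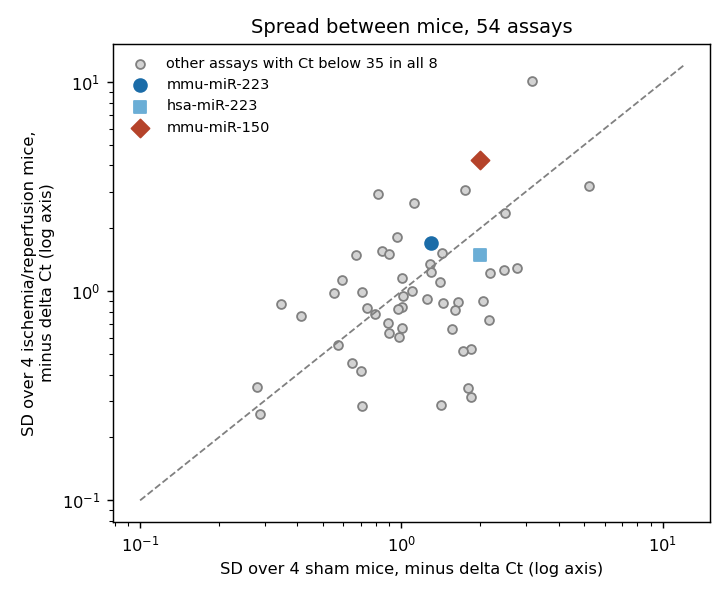
SD of minus delta Ct over the 4 ischemia/reperfusion mice (vertical, log axis) against that over the 4 sham mice (horizontal, log axis) for the 54 miRNA assays detected in all mice, with equal SD as a dashed line. The miR-150 assay, at 1.99 and 4.25, has a single assay above it on the vertical axis.

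The arms of miR-142, markers of the whole hematopoietic lineage, were mostly not detected. The mmu-miR-142-3p assay gave a Ct in sham mouse 4 (31.6) and in ischemia/reperfusion mice 1 (31.6) and 3 (32.1), and none in the other 5 mice. Relative to the reference these levels were -13.70, -10.56 and -11.63 on the log2 scale. Detection, in 1 of 4 mice with sham surgery and 2 of 4 with ischemia/reperfusion, did not pass the threshold of Fisher's exact test (two-sided p = 1). In the authors' deposited table miR-142-3p has a fold of 6.10, which rests on that single sham well and 2 ischemia/reperfusion wells. The mmu-miR-142-5p assay, for the other arm of the hairpin printed above, gave no Ct in any of the 8 mice. Ischemia/reperfusion mouse 2, which had the highest miR-223 level by both assays, had no Ct for either arm of miR-142. No PCR efficiency is given in these sources, so a Ct of one assay set beside that of another shows no order of RNA amounts.

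The mmu-miR-342-3p assay, for a miRNA made with its host gene Evl, gave a Ct of 38.4, 36.5 and 34.7 in sham mice 1, 3 and 4 and none in sham mouse 2. It gave no Ct in any ischemia/reperfusion mouse. Only sham mouse 4, the sample with the most signal, lay below the detection limit. Counting any Ct, a value was present for 3 of 4 mice with sham surgery and 0 of 4 with ischemia/reperfusion, which did not pass Fisher's exact test (two-sided p = 0.143). The mean Ct of the assays detected in all samples was 26.2, 25.8 and 24.8 in the sham mice with a miR-342-3p Ct and 28.4 in the sham mouse without it. In the ischemia/reperfusion mice, all without a Ct, it was 27.7 to 28.1. The part of total signal in this pattern was not tested. The partner-arm assays mmu-miR-150# and mmu-miR-342-5p gave no Ct in any of the 8 mice.

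Of the 6 leukocyte assays, 3 passed the filter of detection in at least 3 mice of each group, beside 9.6% of all 750 miRNA assays. At a limma adjusted p under 0.05, 0 of the 72 tested assays were called (0%). At an unadjusted p under 0.05 limma gave 0 of the 3 leukocyte assays, beside 13.9% of all tested assays. By an exact permutation test the mmu-miR-223, hsa-miR-223 and miR-150 assays had an unadjusted p of 0.571, 0.429 and 0.514. Among the 3 tested members 2 had a higher and 1 a lower mean after ischemia/reperfusion. Their median log2 difference was 0.63, while 68.1% of all tested assays had a lower mean. Of the tested assays 6.94% had groups that did not overlap, and 0 of the 3 leukocyte assays did.

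Differences of Ct between assays of the same mouse and card do not depend on the reference. The mmu-miR-223 Ct minus the miR-150 Ct was 6.84, 3.55, 0.80 and 4.62 cycles in sham mice 1 to 4. It was 4.47, 4.08, 1.06 and -2.79 cycles in ischemia/reperfusion mice 1 to 4. In ischemia/reperfusion mouse 4 alone the miR-223 assay gave the earlier Ct. The mean was 3.95 ± 2.51 cycles (SD, n = 4) with sham surgery and 1.70 ± 3.36 cycles (SD, n = 4) with ischemia/reperfusion. The difference was -2.25 cycles (exact permutation p = 0.400, two-sided, adjusted p = 0.533 over 4 comparisons). Without ischemia/reperfusion mouse 4 it was -0.75 cycles. Across the 8 mice the levels of mmu-miR-223 and miR-150 had a Pearson r of 0.358 and a Spearman rho of 0.524 (exact permutation p = 0.374 and 0.197; adjusted p = 0.422 and 0.262). Without sham mouse 1 and ischemia/reperfusion mouse 3, r was 0.462 (n = 6, exact permutation p = 0.339). For hsa-miR-223 and miR-150 r was 0.333 and rho 0.405 (exact permutation p = 0.422 and 0.327; adjusted p = 0.422 and 0.327), and r was 0.659 without sham mouse 1 and ischemia/reperfusion mouse 2 (n = 6, exact permutation p = 0.188).

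The mean Ct distance of miR-223 from the endothelial miRNA miR-126-3p was shorter after ischemia/reperfusion by both assays, but neither difference passed the test. The mmu-miR-223 Ct lay 8.28, 6.18, 5.84 and 6.99 cycles after that of miR-126-3p in sham mice 1 to 4. It lay 4.04, 3.33, 6.56 and 4.50 cycles after it in ischemia/reperfusion mice 1 to 4. All 4 ischemia/reperfusion mice lay below the sham mean, and mouse 3 lay within the sham range. The difference was -2.21 cycles (exact two-sided permutation p = 0.0857, adjusted p = 0.171). Without ischemia/reperfusion mouse 3 it was -2.86 cycles, at the smallest p that 3 against 4 samples allow (exact permutation p = 0.0286), which leaving out the overlapping mouse fixes by construction. For hsa-miR-223, on the other card, the distance was 6.10 ± 1.77 cycles (SD, n = 4) with sham surgery and 3.00 ± 1.47 cycles (SD, n = 4) with ischemia/reperfusion. That difference was -3.10 cycles (exact two-sided permutation p = 0.0571, adjusted p = 0.171), and 4 of 4 ischemia/reperfusion mice lay below the sham mean. The groups overlapped here too, with sham mouse 4 at 4.23 cycles and ischemia/reperfusion mouse 3 at 4.89 cycles. As these assays lie on different cards, a shift between the cards does not cancel in this distance.

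The miR-126-3p level was itself lower on average, by a log2 value of -1.59 ± 0.57 (SE; limma adjusted p = 0.228). It ranged from -4.98 to -3.28 in sham mice and from -6.11 to -5.22 after ischemia/reperfusion. These groups did not overlap, as for 6.94% of all tested assays. The mmu-miR-223 distance, on the same card, thus combines this lower miR-126-3p level with the mmu-miR-223 difference of 0.63. Its partner arm miR-126-5p was at 0.11 ± 0.60 (limma adjusted p = 0.892). With miR-126-5p in place of miR-126-3p, an alternative chosen after the data were seen, the difference was -0.52 cycles for mmu-miR-223 and -1.41 cycles for hsa-miR-223 (exact permutation p = 0.571 and 0.286). Against this arm the miR-223 difference was thus the smaller of the 2 for both assays. The miR-150 Ct minus the miR-126-3p Ct was 1.44, 2.63, 5.04 and 2.36 cycles in sham mice 1 to 4 and -0.43, -0.74, 5.50 and 7.28 cycles in ischemia/reperfusion mice 1 to 4. Ischemia/reperfusion mice 1 and 2 lay below all sham mice and mice 3 and 4 above all of them, so the group means differed by 0.036 cycles (exact permutation p = 0.971).

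**Figure D5:**
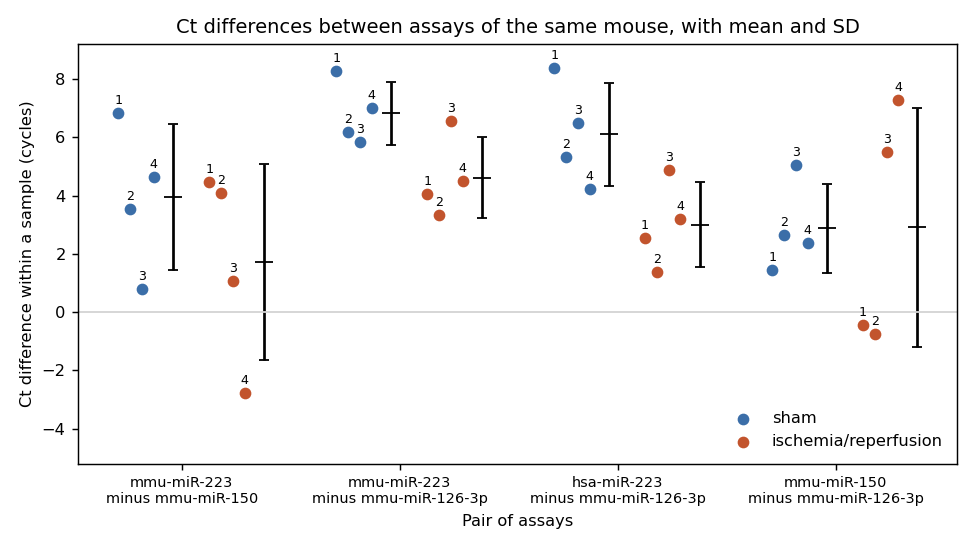
Ct difference between pairs of assays in the same mouse (cycles), with numbered points for the mice of each group and the mean ± SD beside them. The ischemia/reperfusion mice differ on average from the sham mice by -2.21 and -3.10 cycles for the miR-223 assays against miR-126-3p, and lie on both sides of the sham mice for miR-150.

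Of the other lymphoid and activation miRNAs, miR-155, miR-146a, miR-146b, miR-181a and miR-181c were in the table, and 4 of these 5 assays were detected in at least 1 sample. Only 2 could be tested. miR-146a and miR-146b were each detected in 3 sham mice and 1 ischemia/reperfusion mouse, too few for the test. miR-155, a miRNA induced in activated lymphocytes and macrophages, was at a log2 difference of 0.23 ± 0.66, and miR-181a, a regulator of T cell receptor signalling, at 0.53 ± 0.95 (SE; limma adjusted p = 0.818 and 0.734). The miR-181a value rests on 4 sham and 3 ischemia/reperfusion mice. The summed level of the list, taken as thousandths of the reference (2 to the power of minus delta Ct, summed), ranged from 4.77 to 16.3 in sham mice and from 4.55 to 12.4 after ischemia/reperfusion. The summed level of the 6 leukocyte assays ranged from 2.34 to 21.9 and from 1.83 to 59.8 on the same scale. For both sums the groups overlapped. The endothelial markers had a summed level of 93.3 to 182 in sham mice and 23.5 to 59.9 after ischemia/reperfusion, without overlap of the groups. Of the 4 tested endothelial assays, 0 were called. Their unadjusted limma p was 0.0185 for miR-218, 0.0191 for miR-222, 0.0221 for miR-126-3p and 0.862 for miR-126-5p. Of all tested assays 13.9% had an unadjusted limma p under 0.05. The fibroblast and mesenchymal markers ranged from 4.66 to 59.1 and from 9.36 to 22.9, with 0 of 3 tested assays called, and the smooth muscle markers from 0.309 to 3.00 and from 0.254 to 0.684, with 0 of 1. Of the 10 epithelial and tubule assays, 3 were detected in at least 1 sample, and miR-200a, miR-200b, miR-200c, miR-141 and miR-429 in none. miR-204 was detected in 3 sham and 2 ischemia/reperfusion mice, miR-194 in 2 sham mice and miR-192 in 1 sham mouse. The earliest miR-194 Ct was 20.5. The summed level of this list ranged from 0 to 361 in sham mice and from 0 to 35.2 after ischemia/reperfusion. In sham mouse 3, with 2 of these assays detected, it was 361, above the endothelial sum of 93.3 in that mouse. That 361 rests almost wholly on the early miR-194 Ct of 20.5, beside a first-card reference of Ct 19.0 in that mouse. It thus does not describe the epithelial and tubule list as a whole. The leukocyte sum holds both miR-223 assays, so it counts that miRNA through 2 assays. The efficiencies of the summed assays are unknown, and their part in the leukocyte values was not tested.

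The miRNAs whose levels were most like those of the members were sought among the 54 assays detected in all mice, by Pearson correlation of minus delta Ct over the 8 mice. All points share a reference per card, and the correlations are given as a description. For mmu-miR-223 the nearest were miR-155 (r = 0.884), hsa-miR-223 (0.809) and miR-126-5p (0.731). For hsa-miR-223 they were miR-155 (0.823), mmu-miR-223 (0.809) and miR-30a (0.545). The r of miR-155 with each miR-223 assay was thus above that between the assays. It is the highest of 53 correlations over 8 mice in each case, and this order was not tested. For miR-150 the nearest were miR-19b (0.846), miR-30a (0.821) and miR-30b (0.754). The miR-30a level was -5.85 and -3.93 in ischemia/reperfusion mice 1 and 2 and -7.10 and -7.11 in mice 3 and 4. Mice 1 and 2 thus lay above mice 3 and 4, over a narrower range than for miR-150. The miR-19b level was -6.63 and -6.46 in ischemia/reperfusion mice 1 and 2 and -7.80 and -7.92 in mice 3 and 4, narrower still. Both assays were picked for their likeness to miR-150 over these same mice, so the shared order is no separate support.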

How the data were processed

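Per the labels' protocols, RNA was prepared with the mirVana kit and run on a 7900HT Fast instrument using FAM probes. Ct and delta Ct values were deposited for 8 samples. The authors made the delta Ct values, on a log2 scale, by subtracting from each Ct a reference value for that sample and card (checked within 7.11e-15 cycles). Which RNA served as reference is not given in the sources used here. Per the file headers, the authors' fold is a ratio, 2 raised to the sham minus the experimental mean of delta Ct.

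The sign of delta Ct was turned. Values at or above Ct 35 were missing, repeated wells were averaged, and catalogue numbers assigned assays to 2 cards. The 72 miRNA assays detected in at least 3 mice of each group were fitted together with limma 3.58.1 (R 4.3.3; lmFit, then eBayes). Tests were two-sided, and p-values were adjusted by Benjamini-Hochberg over all 72, with a threshold of 0.05. Single values were tested by exact permutation (Python 3.11.15, scipy 1.17.1), detection by Fisher's exact test. Of 10 pairs of assays set for Ct differences within a mouse, 4 had enough values. The fit was tested on simulated data. Members, lists and alternatives were chosen with earlier results of these data known. Named miRNAs are the members, their partner arms, listed markers and the 3 assays most like each member. Mouse numbers were not taken as pairs in the main fit. Deviations of same-numbered mice correlated between -0.38 and 0.020. Mice of different numbers were not compared, so these values cannot settle whether the numbers mark pairs. The number of wells behind a value is not stated, and the errors reflect the spread over mice.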

Additional observations from a re-analysis of the deposited data

How the results depend on the processing

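The number of miRNAs past the threshold was 0 in most settings. It was 1 with any Ct counted as detected, and with values not detected at Ct 35 or Ct 40 (hsa-miR-421 each time), and 0 to 1 when each mouse was left out (miR-1896 without sham mouse 1, miR-199a-3p without sham mouse 2). None of these is a leukocyte miRNA. The mmu-miR-223 difference turned to -0.76 without normalization, while hsa-miR-223 and miR-150 kept their direction in every setting that could be fitted. When each mouse was left out, the log2 difference ranged from 0.013 to 1.39 for mmu-miR-223, from 0.34 to 1.77 for hsa-miR-223 and from -3.03 to -0.18 for miR-150, with limma adjusted p from 0.397 to 0.997. The within-mouse differences ranged from -3.30 to -0.75 cycles for mmu-miR-223 minus miR-150, from -2.86 to -1.73 and from -3.73 to -2.35 for mmu-miR-223 and hsa-miR-223 minus miR-126-3p, and from -1.42 to 1.25 for miR-150 minus miR-126-3p. The group difference between the miR-223 assays ranged from -1.57 to -0.43 cycles. A detection limit of Ct 32 removes ischemia/reperfusion mice 3 and 4 from the miR-150 values and sham mouse 1 from the values of both miR-223 assays. It also removes ischemia/reperfusion mouse 3 from the mmu-miR-223 values. With that limit mmu-miR-223 minus miR-150 turned to 1.28 cycles and miR-150 minus miR-126-3p to -3.45 cycles, and miR-150 could not be fitted. With mouse number as a replicate block, the differences stayed at 0.63, 1.15 and -1.62, with limma adjusted p of 0.653, 0.499 and 0.499, and 0 miRNAs were called. For the within-mouse differences the exact paired test over 4 blocks cannot go under p = 0.125, so it could make no call. After adjustment over 72 assays the exact permutation test, which gave 0, could hardly make one either.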
